A study of Rattus norvegicus with 18 samples.

Results

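Of the 29214 probe sets measured in the rat retina, 63 had no gene symbol, lay outside a run of consecutively numbered unnamed probe sets, and were on average at least 2-fold lower in the PBM, PBMLD and SafLD arrays than in the control, saffron and LD arrays. PBM is photobiomodulation, a brief daily exposure of the animal to red or near-infrared light. LD is light damage, PBMLD is PBM followed by light damage, and SafLD is dietary saffron followed by light damage. The 63 probe sets were chosen by that difference itself: the mean log2 value of the 9 arrays of the first 3 groups minus the mean of the 9 arrays of the other 3 groups had to be at or below -1. The size of this difference is therefore a description. So is every comparison of a group of the first kind (called the low side below) with a group of the second. Counts of probe sets that pass a threshold in such comparisons are not read as tests.

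The study asked which transcripts change when saffron or PBM is given alone, and when either is given before damaging light. Adult Sprague Dawley rats, 80 to 120 days old, were raised in 5 lux cyclic light, and all 6 groups were fed a vegetable matrix that was also the vehicle for saffron. Controls received nothing else. The saffron group received 1 mg/kg/day for 3 weeks, the PBM group 3 min a day for 5 days, and the LD group 24 h of bright light. SafLD and PBMLD animals received the pretreatment and then 24 h of light at 1000 lux. For the LD group, 1 label gives 100 lux and another 1000 lux, and the paper states 1000 lux. There were 3 arrays per group, each of retinal RNA. The paper describes the samples of the treated groups as retinas of different animals, and the labels do not tie arrays to animals.

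The array reads labelled RNA with many short probes placed along each transcript, and a probe set is the group of probes summarised into 1 value. Of the 29214 probe sets, 13581 had no gene symbol. Such probe sets can stand for predicted transcripts, for repeated sequences or for small noncoding RNAs, and the study called entities of this kind ncRNAs. Among small RNAs, small nucleolar RNAs (snoRNAs) are cut from the introns of host genes, many of which encode ribosomal proteins, and guide chemical modification of ribosomal RNA. Small nuclear RNAs (snRNAs) are the RNA parts of the splicing machinery.

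The 63 probe sets were 0.466% of the 13527 unnamed probe sets outside the run. With the same limit 14 named probe sets, 0.0896% of those with a symbol, were as low, and so were 46 of the 54 probe sets of the run. In all, 123 probe sets (0.421%) lay at or below the limit. In the opposite direction 4 unnamed probe sets and 1 named probe set, that of Chst3, were at least 2-fold higher on the low side.

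The 63 were not 63 separate measurements. Among them 18 shared their values in every array with another of the 63, so that 51 distinct profiles were left. Probe sets 10702192, 10739209, 10788077, 10863402, 10885957, 10922249 and 10937321 had identical values throughout. A trio, 10707645, 10707647 and 10722371, had the values of 8 probe sets of the run as well. On the whole array 320 probe sets (1.095%) shared their values with another. Of the 63, 12 were among the 1618 probe sets with the lowest numbers, which the tables used here do not identify.

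The mean signal of the 63 over all arrays ran from 3.34 to 10.54 on the log2 scale, with a median of 7.35, and 8 of them had a mean below 5. Signals of different probe sets depend on their probes and do not rank the RNAs.

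The mean difference between the 2 sides ran from -2.70, which is 6.49-fold, to -1.003, with a median of -1.20, which is 2.29-fold. There were 6 that differed by at least 2 on the log2 scale, 10 that differed by 1.5 to 2, and 47 that differed by less than 1.5. Just inside the limit were 10757702 at -1.01, 10878967 at -1.01 and 10870039 at -1.003. Just outside it were 10721694 at -0.98 and the pair 10915105 and 10702714, both at -0.94. The list thus has no gap at its edge.

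Averaged over the 63 probe sets, the level was 7.70 ± 0.04 in control, 8.04 ± 0.28 in saffron and 7.90 ± 0.19 in LD (log2, mean ± SD of 3 arrays). It was 6.58 ± 0.10 in PBM, 6.55 ± 0.40 in PBMLD and 6.46 ± 0.23 in SafLD. The rule placed saffron without light beside control and saffron before light beside PBM, so this grouping is no finding. The other 13464 unnamed probe sets had group means between 5.55 and 5.61. By array, the mean of the 63 was 7.69, 7.67 and 7.74 in the controls, 7.98, 8.35 and 7.81 in saffron, and 7.82, 7.76 and 8.12 in LD. It was 6.62, 6.47 and 6.65 in PBM, 6.26, 7.01 and 6.38 in PBMLD, and 6.71, 6.28 and 6.38 in SafLD. The array nearest to the other side was PBMLD 2, which held the highest value of the 9 low-side arrays in 30 of the 63 probe sets.

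**Figure D1:**
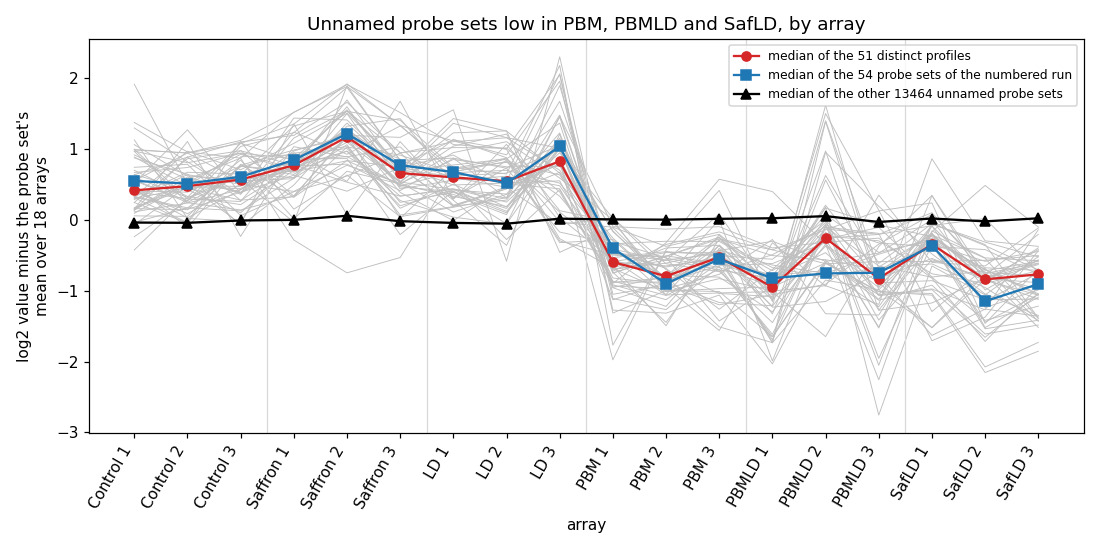
Each grey line is 1 of the 51 distinct profiles, drawn as its log2 value minus its own mean over the 18 arrays (vertical axis) in each array (horizontal axis, grouped by treatment). The median of the profiles (red) and that of the 54 probe sets of the run (blue) drop together at the PBM arrays, while the median of the other 13464 unnamed probe sets (black) stays near 0; single profiles return above 0 in PBMLD 2.

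In 39 of the 63 probe sets (28 of the 51 profiles) all 9 low-side values lay below all 9 others. Over the whole array this held for 0.438% of probe sets, 128 in number. Beside the 39, these were 44 of the run, 21 named and 24 other unnamed ones. The rule had used this contrast, so nothing is read from the share. The group means separated more often than the arrays, in 62 of 63. Saffron was the highest group in 44 of the 63, LD in 16 and control in 3. SafLD was the lowest in 37, PBMLD in 17 and PBM in 9.

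Probe set 10855946 had the largest difference, -2.70. Its log2 values were 9.58, 9.54 and 9.71 in control, 10.11, 10.50 and 10.11 in saffron, and 9.66, 9.60 and 10.64 in LD. They were 7.32, 7.27 and 7.53 in PBM, 6.56, 7.98 and 7.58 in PBMLD, and 7.55, 6.51 and 6.86 in SafLD. The highest low-side value, 7.98, lay below the lowest other value, 9.54, and the highest single value was that of LD 3.

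Probe set 10862359 was next at -2.59. It read 9.91, 9.86 and 9.99 in control, 10.27, 10.83 and 10.24 in saffron, and 10.03, 9.83 and 10.87 in LD. On the low side it read 7.60, 7.92 and 7.90 in PBM, 7.26, 8.31 and 7.90 in PBMLD, and 7.85, 6.76 and 7.06 in SafLD. As in the probe set before, SafLD 2 was the lowest array.

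Probe set 10703224, at -2.31, read 7.54, 7.19 and 7.49 in control, 8.14, 8.50 and 7.96 in saffron, and 7.27, 7.16 and 8.68 in LD. In PBM it read 5.51, 5.35 and 5.96, in PBMLD 4.97, 6.04 and 5.48, and in SafLD 5.70, 5.01 and 5.13. In all 3 of these probe sets LD 3 was the highest array, saffron 2 came next, and PBMLD 2 was the highest of the low side.

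Probe set 10932269, at -2.07, had a mean of 5.35 ± 0.21 in control, 6.29 ± 0.10 in saffron, 6.06 ± 0.86 in LD, 3.89 ± 0.70 in PBM, 3.97 ± 0.66 in PBMLD and 3.64 ± 0.37 in SafLD. The pair 10838282 and 10924172, with identical values and a difference of -2.02, had a mean of 5.83 ± 0.48 in control and 3.84 ± 0.43 in SafLD. In both profiles the sides did not overlap.

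Probe set 10839872, at -1.97, behaved otherwise in LD 3. It read 8.91, 9.16 and 9.37 in control, 9.46, 9.93 and 9.22 in saffron, and 9.29, 9.29 and 8.67 in LD. In PBM it read 7.41, 7.20 and 7.58, in PBMLD 6.66, 8.19 and 6.996, and in SafLD 7.93, 6.73 and 6.85. Here LD 3 was the lowest of the 9 arrays outside the low side. Probe set 10707643, at -1.89, read 8.29, 7.72 and 8.90 in LD, where LD 3 was again the highest of its group, and 6.18, 6.26 and 6.67 in PBMLD, where PBMLD 2 was not.

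The brightest profile was that of the trio 10707645, 10707647 and 10722371, with a mean of 10.54 and a difference of -1.22. It read 10.94, 10.84 and 11.15 in control, 11.39, 11.76 and 11.07 in saffron, and 10.97, 10.66 and 11.57 in LD. On the low side it read 10.39, 9.64 and 10.11 in PBM, 9.90, 9.78 and 10.06 in PBMLD, and 10.28, 9.39 and 9.79 in SafLD. The sides did not overlap, and PBM 1 came closest to LD 2.

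**Figure D2:**
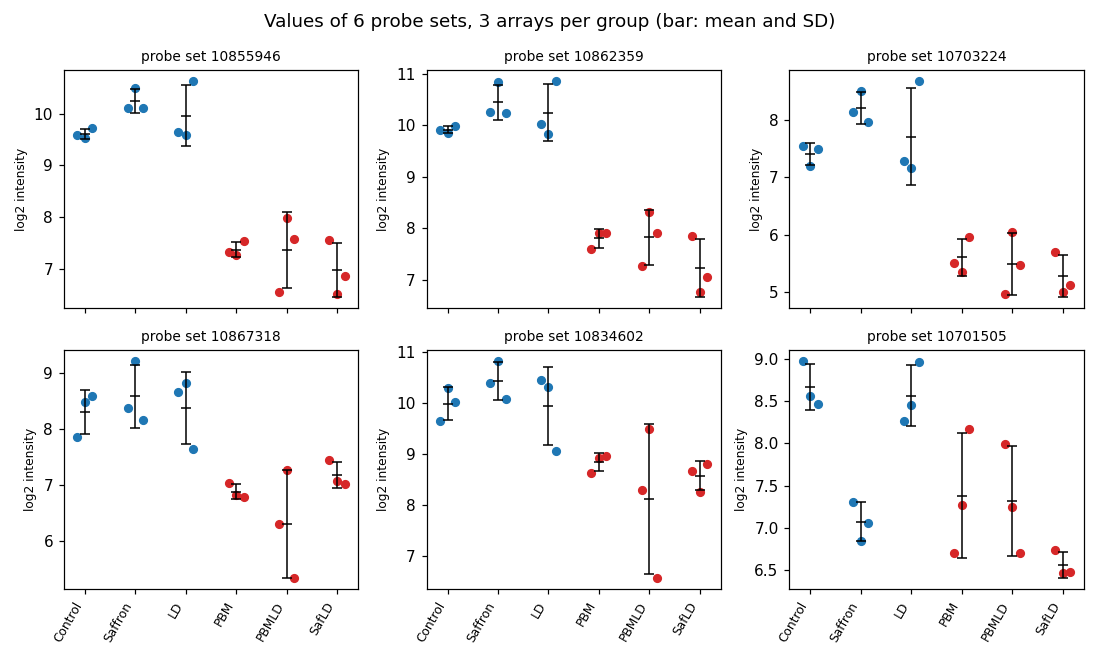
Log2 values (vertical axes) of 6 of the 63 probe sets in each group (horizontal axes), with 3 points per group for its arrays in order, a bar for the mean and whiskers of 1 SD. In the upper row LD 3 is the highest array of its group, in 10867318 and 10834602 it is the lowest, and in 10701505 the saffron arrays lie below the control and LD arrays.

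The comparisons that chose the probe sets gave the following counts. In PBM against control 8 of the 63 were called lower (0.13% of all probe sets), with a median difference of -1.15 log2. In PBMLD against control 16 were called lower (0.209%), with a median of -1.06, and in SafLD against control 26 (0.373%), with a median of -1.12. Against LD, 19 were called lower in PBMLD (0.212%, median -1.23) and 27 in SafLD (0.243%, median -1.36). A call required an adjusted p below 0.05 over all probe sets in limma and more than a 2-fold change. The comparisons share their control or LD arrays, and the rule had used all of them. Probe sets chosen for low values in these arrays were likely to be called lower. The counts and the whole-array shares beside them therefore describe the choice, and nothing is read from their difference.

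A further 5 comparisons lay within a side, or were built from such comparisons, and so did not enter the rule: LD against control, saffron against control, PBMLD against PBM, SafLD against PBMLD, and the light response after PBM minus that without it. None of the 63 was called in any of them by limma. The sides themselves had been set with the values known, and a missed threshold does not show that levels were equal. The median standard error was 0.31 for the first 4 comparisons and 0.44 for the last.

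LD against control shows whether the probe sets followed damaging light. Over the array 155 probe sets were called (0.531%), but 0 of the 63. Their median difference was 0.14 log2, against -0.02 for all probe sets, with a range from -0.42 to 0.80. The difference was above 0 in 46 and below 0 in 17, where 46.1% of all probe sets were higher. Only 2 had an unadjusted p below 0.05, the pair of identical probe sets 10797013 and 10932228, against 9.58% of all probe sets. The pair read 4.35, 4.51 and 4.50 in control and 5.42, 5.22 and 5.07 in LD. The groups did not overlap, and the difference was 0.78 ± 0.22 (SE) with an adjusted p of 0.118 in limma. With array weights it was 0.88 with an adjusted p of 0.0142 in limma, less than 2-fold and so not called. Every other setting that gave an adjusted p for it had one above 0.05. Without LD 2, probe set 10866501 was called, at 1.64 ± 0.33 with an adjusted p of 0.0237 in limma. It was singled out after its values were seen. It read 7.52, 7.13 and 7.53 in control and 8.66, 6.52 and 9.41 in LD, so that LD 2 lay below the controls and the other LD arrays above them.

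Saffron against control called 0 of the 63 and 0% of all probe sets. The median difference of the 63 was 0.37 log2, against 0.01 for all. The difference was above 0 in 59 and below 0 in 4, where 52.5% of all probe sets were higher, and 47 of the 51 distinct profiles were higher. Of the 63, 9 had an unadjusted p below 0.05 (8 of the 51 distinct profiles), against 4.6% of all probe sets. Higher in saffron were 8 of the 9. The 63 move together in single arrays, so this count is not one of independent observations. All 3 saffron arrays had a higher mean over the 63 than all 3 control arrays.

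Probe set 10701505, one of the lowest-numbered, had the lowest difference in saffron against control. It read 8.97, 8.56 and 8.47 in control, 7.31, 6.85 and 7.06 in saffron, and 8.27, 8.46 and 8.96 in LD. The saffron arrays all lay below the control arrays, with a difference of -1.59 ± 0.32 (SE) and an adjusted p of 0.442 in limma. On the low side it read 6.70, 7.27 and 8.17 in PBM, 7.996, 7.25 and 6.71 in PBMLD, and 6.74, 6.47 and 6.48 in SafLD. Its saffron mean was below its PBM mean, which made it the only one of the 63 whose group means did not separate by side.

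PBMLD against PBM shows the light response in animals given PBM. Over the array 43 probe sets were called (0.147%), and 0 of the 63. The median of the 63 was -0.02 log2, with a range from -0.72 to 1.04, and 30 were higher and 33 lower, where 50.5% of all probe sets were higher. Only 10700902 had an unadjusted p below 0.05, against 8.12% of all probe sets. It read 6.38, 6.12 and 6.98 in PBM and 6.28, 8.84 and 7.48 in PBMLD. The difference was 1.04 ± 0.43 (SE) with an adjusted p of 0.521 in limma, and the groups overlapped. Without PBMLD 1 it was called, at 1.66 with an adjusted p of 0.0355 in limma.

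SafLD against PBMLD sets the pretreatments before light side by side. It called 0 of the 63 and 0% of all probe sets. The median of the 63 was -0.14 log2, with a range from -1.09 to 1.11, and 20 of the 63 were higher in SafLD, where 47.2% of all probe sets were. Of the 63, 10 had an unadjusted p below 0.05, with 4 higher and 6 lower, against 8.32% of all probe sets. Counted once, these were 9 of the 51 distinct profiles. The smallest adjusted p, 0.471 in limma, was shared by 10919224 and 10701202, and 10919224 had the smaller unadjusted p. It read 3.54, 3.62 and 3.35 in PBMLD and 5.41, 4.25 and 4.17 in SafLD, a difference of 1.11 ± 0.33 (SE), and the groups did not overlap.

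The light response after PBM minus that without it called 0 of the 63 and 0.00685% of all probe sets. It was below 0 in 45 of the 63 and above 0 in 18, where 53.1% of all probe sets were above 0. The median was -0.30 log2, with a range from -1.02 to 0.93. There were 5 with an unadjusted p below 0.05, all lower, against 4.26% of all probe sets. With identical values counted once, 3 of the 51 distinct profiles had such a p. The median of the 51 was -0.22 log2, and 18 of them were above 0. The smallest unadjusted p was shared by the identical probe sets 10797013 and 10932228, at -0.80 ± 0.31 (SE). Their adjusted p was 0.999 in limma, a value that they shared with nearly all of the 63.

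**Figure D3:**
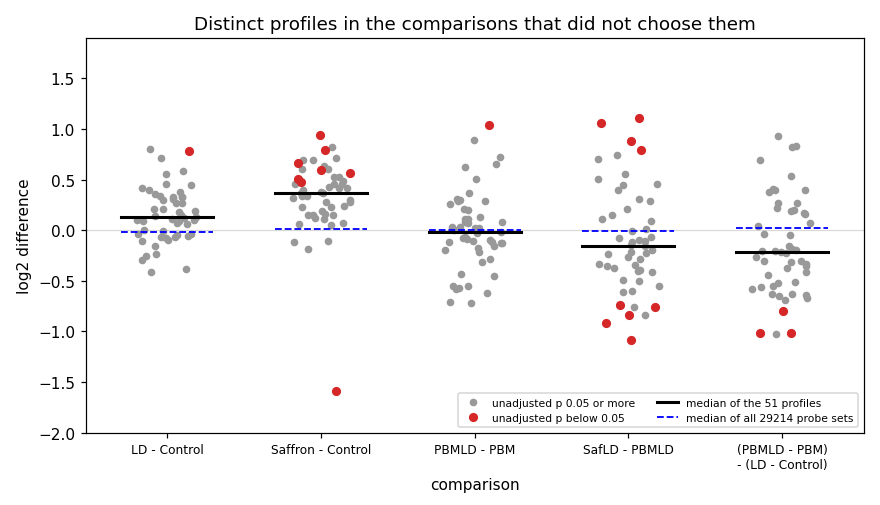
Each point is 1 of the 51 distinct profiles, at its log2 difference (vertical axis) in the 5 comparisons that the rule did not use (horizontal axis). Black bars are medians of the profiles, dashed blue bars medians of all 29214 probe sets, and red points have an unadjusted p below 0.05; the black bar lies furthest above the blue one in saffron against control, and the single red point at -1.59 there is 10701505.

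The 63 probe sets varied more between arrays of a group than most. Their residual SD had a median of 0.43 log2 and ran from 0.27 to 0.88, while the median was 0.20 for all probe sets and 0.21 for the other unnamed ones. Saffron 2 held the highest of the 9 values outside the low side in 25 of the 63, and LD 3 in 23. SafLD 2 held the lowest low-side value in 23. These arrays also weigh on the list itself: 46 probe sets met the rule without saffron 2, 46 without LD 3 and 47 without SafLD 2. Of these, 46, 45 and 47 were among the 63.

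The numbers of the probe sets carry some information on position. Among the 15273 probe sets whose gene could be placed in the RefSeq annotation of GRCr8, 91.8% of neighbours in number lay on the same chromosome, and 94.6% of these were in ascending order. The nearest named probe sets on both sides were therefore used to give the interval in which an unnamed probe set is likely to lie. Of the 51 probe sets above the lowest-numbered block, 28 had flanking genes no more than 1 Mb apart, with a median interval of 215 kb. An interval does not name the probe set, and the sequences of these probe sets were not used here.

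Of the 28 probe sets, 9 (32.1%) had at least 1 RefSeq snoRNA gene in the interval, against 16.8% of the 6645 other unnamed probe sets placed in the same way. The median interval of those others was 269 kb. Likewise 9 (32.1%) had an snRNA gene there, against 15.4%, 5 (17.9%) a tRNA gene, against 9.07%, and 1 (3.57%) a miRNA gene, against 6.5%. Any of these was present in 18 (64.3%), against 38.8%. These shares count each member of a pair with identical values. Counted once, the 28 are 25 profiles, of which 9 (36%) had a snoRNA gene, 6 (24%) an snRNA gene, 4 (16%) a tRNA gene and 15 (60%) any of these. The other unnamed probe sets counted in that way gave 16.8%, 15.4%, 9.04% and 38.7%. None of these shares was tested.

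Several of these intervals contain well-known snoRNA host genes. By number, probe sets 10834602 and 10834604 lay between Rpl7a and Surf2, with 4 snoRNA genes including Snord24, and Rpl7a is itself a ribosomal protein gene. Probe set 10765040 lay between Serpinc1 and Cenpl, with 9 snoRNA genes including Snord78 and Snord81, which the noncoding gene Gas5 hosts. Probe set 10721700 lay between Fcgrt and Dkkl1, with 5 including Snord33, Snord35a and Snord35b. Probe set 10878967 lay between Plk3 and Kif2c, with Snord38a, Snord38b, Snord46 and Snord55. Probe set 10827452 lay between Rabggtb and Acadm, with Snord45a and Snord45c, and 10867318 between Ppp1r42 and Vcpip1, with Snord87. The other two, 10919224 and 10930226, lay between Syncrip and Tmed3 and between Pja2 and Tmem232.

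Probe set 10834602, with a difference of -1.61, read 9.64, 10.29 and 10.03 in control, 10.40, 10.83 and 10.09 in saffron, and 10.45, 10.32 and 9.06 in LD. It read 8.64, 8.92 and 8.96 in PBM, 8.30, 9.50 and 6.56 in PBMLD, and 8.67, 8.26 and 8.80 in SafLD. LD 3 and PBMLD 3 were the lowest arrays of their groups, and PBMLD 2 overlapped with LD 3.

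Probe set 10867318, with a difference of -1.62, showed the same arrays at its extremes. It read 7.85, 8.47 and 8.58 in control, 8.38, 9.20 and 8.15 in saffron, and 8.65, 8.82 and 7.64 in LD. It read 7.04, 6.82 and 6.80 in PBM, 6.31, 7.26 and 5.35 in PBMLD, and 7.45, 7.07 and 7.03 in SafLD.

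By number alone, a further 6 probe sets lay among genes of an imprinted region, 4 between Atp10a and Ndn and 2 between Gabra5 and Peg12. Ndn and Peg12 are imprinted genes of the region that corresponds to the human Prader-Willi region, which is known for tandem copies of snoRNA genes. RefSeq lists 321 and 323 snoRNA genes in these intervals, which are longer than 1 Mb and so were not among the 28. Both intervals contain Snord64 and Snord107, so they overlap and the 2 counts are not of separate genes. The trio with the values of 8 run probe sets belongs here, as do 10707641, 10707643 and 10722369. Probe set 10722369 read 10.36 ± 0.12 in control and 10.92 ± 0.39 in saffron, against 9.65 ± 0.35 in PBM, 9.36 ± 0.08 in PBMLD and 9.51 ± 0.33 in SafLD.

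Averaged over its 54 probe sets, the run followed the groups like the 63 did. Its level was 9.43 ± 0.04 in control, 9.82 ± 0.25 in saffron and 9.63 ± 0.38 in LD, and 8.29 ± 0.21 in PBM, 8.09 ± 0.09 in PBMLD and 8.07 ± 0.39 in SafLD. Within groups, the 63 did not all move as the run did. The rule averaged these arrays, and 45 of the 63 met it without LD 3 and 51 without PBMLD 3. Which probe sets were high or low in these arrays can thus be partly set by the rule. In LD 3, all 54 run probe sets lay above the mean of LD 1 and LD 2, by a median of 0.75 log2, and so did the 6 between Atp10a and Ndn or Gabra5 and Peg12, by a median of 0.77. Of the 9 with a snoRNA gene in their interval, 8 lay below it, by a median over the 9 of -0.48. Over the whole array 45.6% lay below, and of the 1117 other unnamed probe sets with a snoRNA gene in the interval 41.5% did.

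PBMLD 3 gave the same split. Of the 9, 8 lay below the mean of PBMLD 1 and PBMLD 2, with a median of -0.49 and a lowest value of -2.34, and the 6 of the imprinted region lay above it, with a median of 0.21. Over the whole array 55.5% lay below, and of the 1117 others 62.5%. The drop was not particular to the 9, since 9 of the 12 lowest-numbered probe sets lay below too, with a median of -0.52. Of the 36 in none of these position classes, 23 did (63.9%), with a median of -0.22. These 36 were 26 distinct profiles, so here and below identical values count more than once. Some of the 36 had other small RNA genes in their interval, or snoRNA genes in an interval over 1 Mb. Of the run, 36 of 54 lay above, with a median of 0.18. In PBMLD 2 all 9 lay above the mean of the other two arrays, by a median of 0.67, and all 6 below it, with a median of -0.20. There too the 9 were not alone, since 33 of the 36 in none of these classes lay above, by a median of 0.69. The run was split into 27 above and 27 below, and 45.6% of the whole array lay below. In saffron 2 most sets were high. All 9 and all 6 lay above, by medians of 0.80 and 0.53. So did 35 of the 36 and 52 of the 54 of the run, where 47.5% of the whole array lay below. The 12 lowest-numbered probe sets were the exception, with 5 above, 7 below and a median of -0.04. In LD 3 and PBMLD 3 the 2 position classes thus lay mostly on opposite sides of their group mates. The position classes were set up after values had been seen, and the difference between them was not tested.

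**Figure D4:**
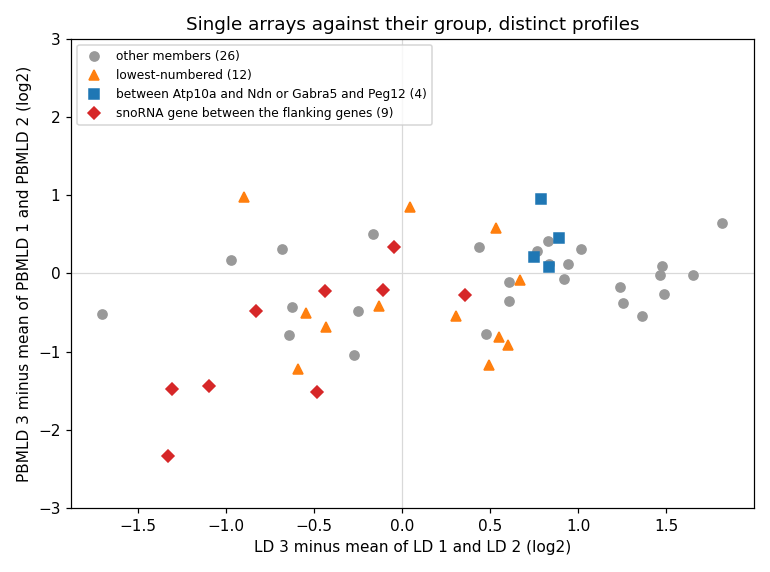
Each point is 1 of the 51 distinct profiles, at its log2 value in LD 3 minus the mean of LD 1 and LD 2 (horizontal axis) and in PBMLD 3 minus the mean of PBMLD 1 and PBMLD 2 (vertical axis), marked by position class. The 4 profiles of the imprinted region lie above 0 on both axes, while 7 of the 9 with a snoRNA gene between the flanking genes lie below 0 on both.

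The 14 named probe sets past the same limit were few in kind. The lowest, by the same difference, were a probe set shared by Cryga and Crygc at -1.30, Bfsp1 at -1.20, LOC366310 at -1.20, Cryga at -1.19 and Rpl39 at -1.16. Cryga and Crygc encode crystallins and Bfsp1 a beaded filament protein, all of the lens. Their values rested on variable LD arrays. The shared probe set stood at 9.08 ± 3.15 in LD and Bfsp1 at 8.94 ± 2.54, and PBMLD lay above control in both, at 6.78 against 6.38 and at 7.23 against 6.15. Rpl39, a protein of the large ribosomal subunit, had 7 probe sets past the limit, from -1.16 to -1.02, of which 4 had identical values. That profile stood at 9.54 ± 0.44 in control, 9.84 ± 0.32 in saffron and 9.88 ± 0.11 in LD, against 8.55 ± 0.10 in PBM, 8.57 ± 0.52 in PBMLD and 8.68 ± 0.36 in SafLD. Its highest low-side value, 9.16, lay below its lowest other value, 9.25.

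Named small RNAs on the array could not stand in for the unnamed ones. Of the small RNA symbols searched for, 2 were measured: Rpph1, the RNA of ribonuclease P, at -0.09 and Terc, the RNA of telomerase, at -0.26. The 36 probe sets picked by histone-like symbol prefixes had a median of -0.07, with 58.3% below 0, but these prefixes also took in H19, a noncoding RNA that is no histone, and histones made outside replication. The 23 of them from the replication-linked histone gene clusters, a list narrowed after the values were seen, had a median of -0.11, with 73.9% below 0 and the lowest, H2ac21, at -0.79. Messages of this kind typically lack a poly(A) tail. All 15310 probe sets with 1 symbol had a median of 0.03, with 41.8% below 0. No probe set with 1 symbol had the prefix mt- or Mt- that was used to look for mitochondrially encoded genes. Other symbols of such genes were not searched for.

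Markers of other tissues and cells differed in part between the sides. The 10 measured of 11 lens markers had a mean of 10.02 ± 0.25 in control, 10.92 ± 0.45 in saffron and 11.30 ± 1.41 in LD, where 2 arrays read 12.12 and LD 2 read 9.67. They read 10.002 ± 0.29 in PBM, 10.55 ± 0.56 in PBMLD and 10.10 ± 0.49 in SafLD, so that the low side was lower by -0.53. In the same groups the mean of the 63 was 7.70 in control, 8.04 in saffron and 7.90 in LD. It was 6.58 in PBM, 6.55 in PBMLD and 6.46 in SafLD. The 5 pigment epithelium markers differed by -0.43, the 2 measured of 4 blood markers by -0.27, and the 4 microglia markers by -0.15. The 6 measured of 8 rod markers stood at 12.46 to 12.87 in every group and differed by -0.05 and the 4 measured of 5 Muller cell markers by 0.003. The part of these markers in the values of the 63 was not tested. In whole retina, fewer cells of a type and less RNA per cell cannot be told apart. The labels state that DNA was digested in some RNA samples and do not say which, and its part in these values was not tested.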

How the data were processed

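The 18 arrays, 3 in each of 6 groups, were of the Affymetrix rat Gene 1.0 ST type. The paper states 4 animals per group and the labels give 3 arrays. The authors deposited log2 intensities computed with RMA, which corrects background, equalises the distributions of the arrays and summarises probes, with Affymetrix Expression Console 1.1.2800.19935 as the program in the submitters' processing notes. Values lay between 1.37 and 14.03 and array medians between 6.12 and 6.19, and nothing was rescaled. The number of arrays limits the precision. A genome build was not given in the sources used here.

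Symbols came from the platform table by probe set number (15310 probe sets with 1 symbol, 323 with several, 13581 with none). RefSeq genes of GRCr8 were used for names and neighbours only.

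limma 3.58.1 in R 4.3.3 was fitted to all arrays with 6 group means and 12 residual degrees of freedom, two-sided, with Benjamini-Hochberg adjustment over 29214 probe sets. Called means adjusted p below 0.05 and more than 2-fold. The steps were tested on simulated data.

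The rule, the gene lists and the markers were chosen with earlier results of these data known. The lists of named small RNAs, histones and mitochondrial genes were taken by symbol prefix. Named were the 8 lowest by the rule's difference, the 3 brightest, 3 on each side of the limit, the smallest adjusted p in each tested comparison where nothing was called, and the 5 lowest named probe sets. Those named by position or as sharing values were chosen after their values were seen.

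Alternatives were the methods' t-test, a fit of only the groups compared, robust fitting with a variance trend, weights per array, calls without the fold limit, quantile normalization, median centring, a filter on dim probe sets (mean below 5), a replicate block (statmod 1.5.0 was loaded) and each array left out in turn. Chosen after seeing the data were the leaving out of the lowest-numbered probe sets, the counting of identical profiles once, and the stricter rule over all pairs of groups.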

Additional observations from a re-analysis of the deposited data

How the results depend on the processing

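The count of called probe sets among the 63 was 0 in all 5 tested comparisons and stayed 0 under most alternatives. It was 1 by the methods' t-test without adjustment in saffron against control (10701505, -1.59), and 0 by that test after Benjamini-Hochberg adjustment in each of the 4 comparisons it fits. The t-test gives no value for the light response after PBM minus that without it. With each array left out in turn the count ran from 0 to 1 in LD against control and in PBMLD against PBM, and from 0 to 0 in the other 3. It was 1 without LD 2 (10866501) and 1 without PBMLD 1 (10700902, 1.66, adjusted p 0.0355 in limma). The cause was not tested. With the replicate number as a block the count was 0 in all 5. The labels do not say whether equal numbers pair the samples. Of 24 correlations between same-numbered arrays 7 were over 0.1, and the 24 ran from -0.386 to 0.306. They were taken on deviations from group means of 3 arrays and cannot settle the question.

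The number of probe sets that met the rule was 63, also after median centring. It was 61 after quantile normalization, 51 with medians of the 9 arrays (46 of them among the 63), 51 without the lowest-numbered and 51 with identical profiles counted once. It ran from 46 to 65 with each array left out in turn. When each of the 9 differences between a low-side group and another group had to be at or below -1, a rule added after seeing the data, 19 were left. Levels near the bottom of the scale, a mean below 5 in 8 of the 63, can understate a difference.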
